A study of Mus musculus with 4 samples.

Results

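Accessible chromatin was examined around 9 mouse cytokine genes: Il12a, Il12b, Il23a, Il27 and Ebi3, which encode the subunits of the interleukin-12 family, and the inflammatory and regulatory cytokine genes Il10, Il6, Tnf and Ifnb1. The genes were chosen by name, with earlier results of these data known, and the rule used no measured value. A region counted for a gene when it overlapped the gene body or the 20 kb on either side of it in the GENCODE M21 annotation of GRCm38. The windows held 88 of the 155546 accessible regions of the series, and the genes were 9 of the 21755 protein-coding genes annotated on the chromosomes used.

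The interleukin-12 family is built from shared chains. Il12a and Il12b together form interleukin-12, Il12b with Il23a forms interleukin-23, Il27 with Ebi3 forms interleukin-27, and Il12a with Ebi3 forms interleukin-35. IRF8 is an interferon regulatory factor of myeloid cells that binds DNA poorly alone and pairs with the ETS factor PU.1 at composite ETS-IRF elements, and Il12b is among its best known target genes in macrophages and dendritic cells. In microglia, the macrophages of the brain, most of these cytokines are induced by infection or injury.

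The data were ATAC-seq peak lists, in which the Tn5 transposase cuts open chromatin and cut sites pile up at accessible positions. The libraries came from microglia isolated by flow cytometry from untreated C57BL/6 mice aged 3 months, 2 libraries labelled WT and 2 labelled IRF8KO, made with the Nextera chemistry and 12 cycles of PCR. The labels do not say which part of Irf8 was removed, in which cells, or whether the libraries came from separate animals, so the spread given here is the spread between these libraries and may be technical. The comparison asks where accessibility around the cytokine genes differs between microglia labelled with and without IRF8.

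Facts of the whole series bear on every value below. The headers gave 46948938 and 48896408 tags for WT replicates 1 and 2 and 78793572 and 66224648 for IRF8KO replicates 1 and 2, with a tag size of 50 bases in WT and 49 in IRF8KO, so that depth and tag size cannot be told apart from genotype. The value used is the scaled pileup, which is how many extended cut sites cover a summit (the pileup) for every 1000000 tags of the header. Its median over the 48262 regions with a strict peak (a -log10 q of 2 or more) in all 4 libraries was 0.958 and 0.777 in WT and 0.558 and 0.876 in IRF8KO, and the median log2 ratio of IRF8KO over WT was -0.28. A strict peak lay within 1 kb of a transcription start of 10 of 10 microglial marker genes in both WT libraries and of 9 of 10 in both IRF8KO libraries, where Sall1, a microglial transcription factor, lacked one. Markers of other cell types were partly accessible, with 1 of 6 for T and NK cells in each library, 2 of 5 for B cells in each WT and 1 of 5 in each IRF8KO library, and 0 to 2 of 6 for neutrophils. Astrocyte markers counted 2 to 4 of 5, neuronal markers 1 to 4 of 4, oligodendrocyte markers 1 or 2 of 4 and endothelial markers 3 or 4 of 4, while Cd3e, Cd8a, Cd79a, Ms4a1, Ly6g and Elane had none in any library. The part of depth, tag size and other cell types in the results was not tested. A strict peak at the Irf8 promoter was present in all 4 libraries, which does not check the deletion because the removed part is not known.

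Across the 9 windows the number of strict peaks was 66 and 64 in WT and 51 and 60 in IRF8KO. Both IRF8KO libraries lay below both WT libraries, the means being 65.0 ± 1.41 for WT and 55.5 ± 6.36 for IRF8KO (SD, 2 libraries each). Over the whole lists both IRF8KO libraries were also below both WT libraries, with 97473 and 98863 strict peaks in WT and 83996 and 95921 in IRF8KO. The base pairs under these peaks did not separate the groups, being 17751 and 16162 in WT and 16727 and 18704 in IRF8KO. In bulk chromatin, fewer cells with an open region and less opening in each cell cannot be told apart.

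**Figure D1:**
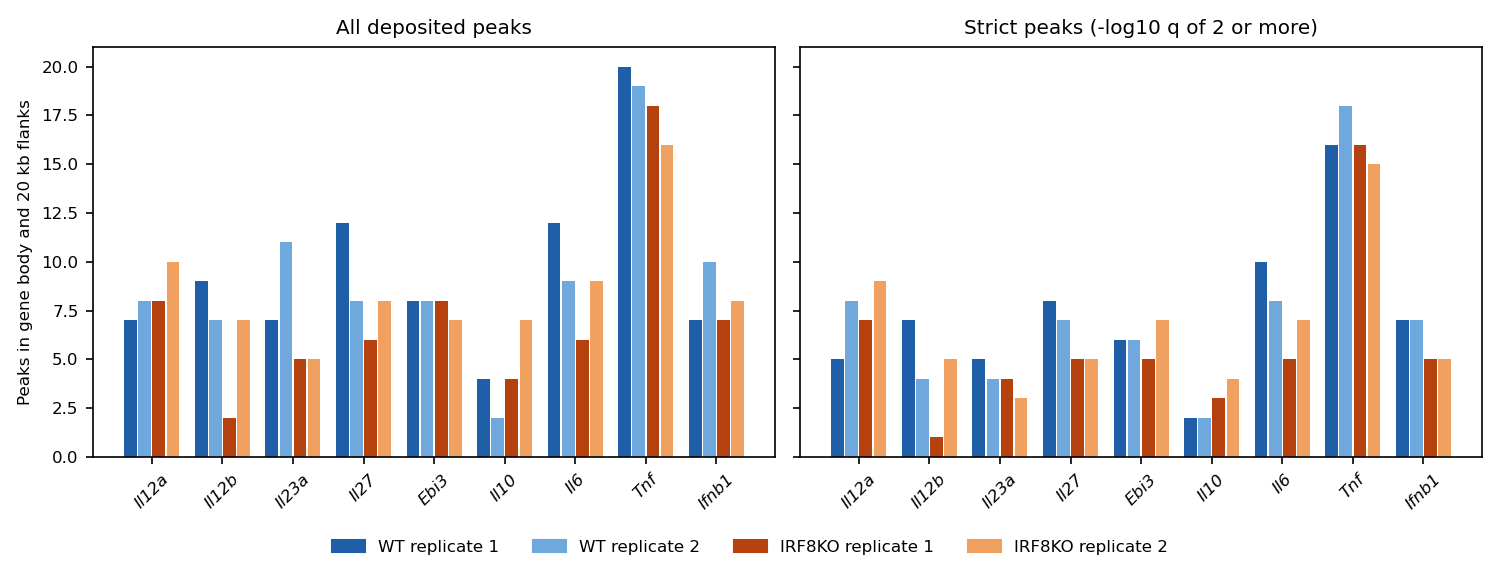
Number of deposited peaks (left) and strict peaks (right) in the gene body and 20 kb flanks of each cytokine gene, 1 bar per library. The Tnf window holds the most, with 16, 18, 16 and 15 strict peaks. The Il12b window holds 7 and 4 in WT and 1 and 5 in IRF8KO, so that the groups overlap.

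A region was called WT-specific when both WT libraries had a strict peak there and neither IRF8KO library had a deposited peak of any strength, and IRF8KO-specific in the converse case. The cytokine windows held 8 WT-specific regions, 9.09% of the 88, against 5.58% of all regions of the series. They held 2 IRF8KO-specific regions, 2.27%, against 3.86% of all regions. The WT-specific regions lay at 5 of the 9 genes, namely Il12b with 3, Il27 with 2, and Il10, Il6 and Ifnb1 with 1 each. Among all protein-coding genes 28.1% had a WT-specific region by the same window, and 20.7% had an IRF8KO-specific region, as Ebi3 and Il10 did here (2 of 9). The cytokine genes are short, the longest being 13971 bp against a median of 17414 bp over protein-coding genes, so their windows are smaller than most. Il12a, Il23a and Tnf had no genotype-specific region. Besides these 10 and the 34 shared regions, 44 regions had strict peaks in some libraries only, without following genotype by these rules.

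Of the 34 regions with a strict peak in all 4 libraries, 6 were lower in both IRF8KO libraries than in both WT libraries with a ratio of means of at least 1.5, which is 17.6% against 24.6% of all such regions. In the other direction 5 of 34 were higher, 14.7% against 8.52% of all such regions. The median log2 ratio of the 34 was -0.11, with 19 below 0, beside the series median of -0.28. Scaling each library by its median ratio over shared regions, which sets the series median to -0.01, gave 2 lower and 10 higher regions and turned the cytokine median to 0.19, with 14.7% lower and 15.4% higher over all shared regions. The 2 lower regions under that scaling were at Il6 and Ifnb1. Of the 10 higher ones, a region each lay in the Il12a, Il23a, Il27 and Ebi3 windows. The rest lay in the Tnf window, which also holds Lta, Ltb, Lst1, Nfkbil1 and Gm16181. Single libraries also moved the counts of lower and higher regions. Without IRF8KO replicate 1 there were 3 lower and 10 higher of 38 shared regions. Without WT replicate 1 there were 3 and 8 of 36, and the median became 0.14 and 0.16 in these 2 cases. Without WT replicate 2 there were 13 lower and 3 higher of 37 shared regions, and 15 of 36 were lower without IRF8KO replicate 2. IRF8KO-specific regions numbered 5 and 11 of 83 without WT replicate 1 and IRF8KO replicate 1, and 6 of 80 without IRF8KO replicate 2. WT-specific regions numbered 13 of 84 without WT replicate 2. The shares over all regions of the series were not counted with a library left out. With 2 libraries against 2, the exact two-sided permutation test on a region's pileup cannot give a p below 0.33, which is its value for every region whose groups do not overlap, so no single difference below passes a threshold of 0.05.

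**Figure D2:**
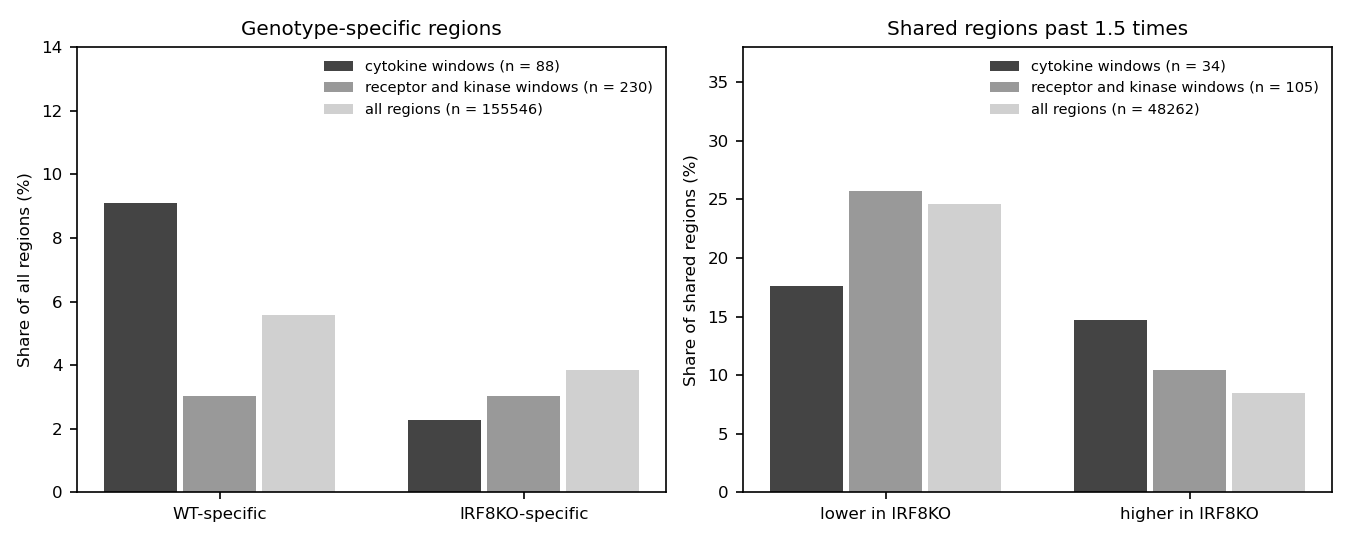
Shares of WT-specific and IRF8KO-specific regions among all regions (left, percent) and of shared regions past a ratio of 1.5 with groups apart (right, percent), for the 9 cytokine windows, the windows of 15 receptor and kinase genes, and the whole series. Cytokine windows stand at 9.09% WT-specific regions against 5.58% in the series, and at 17.6% lower shared regions against 24.6%.

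**Figure D3:**
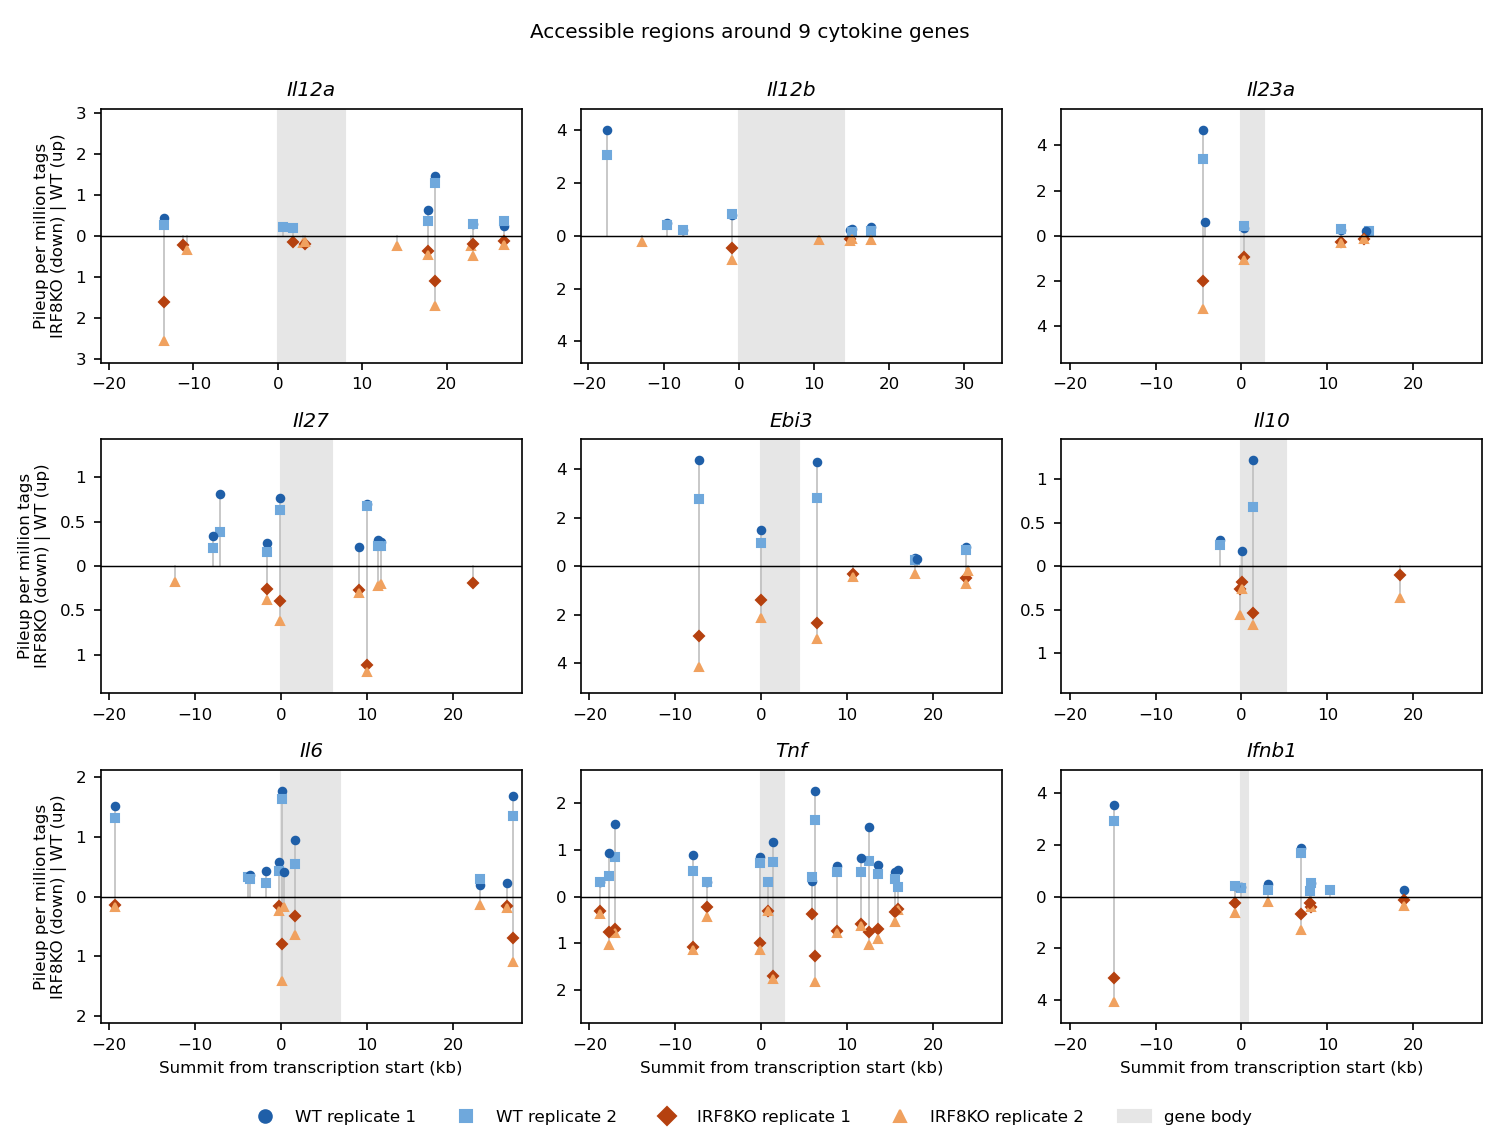
Scaled pileup (pileup per 1000000 tags) of each region by the distance of its summit from the transcription start of the cytokine gene (kb, positive in the direction of transcription), WT libraries drawn upward and IRF8KO libraries downward, with the gene body shaded. A stalk on 1 side marks a region with peaks in 1 genotype, such as the tall Il12b stalk at -17.6 kb, which reaches 4.0 and 3.05 in WT and has no counterpart in IRF8KO.

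Il12b encodes the chain that interleukin-12 and interleukin-23 have in common. Its window on chr11, with the gene at 44400063-44414033 on the plus strand and no other gene inside, held the tallest genotype-specific region of the 9 windows. That region, chr11:44382089-44382629, is intergenic with its summit at -17.6 kb from the transcription start. Its pileup was 188 and 149 in WT replicates 1 and 2, or 4.0 and 3.05 scaled, with a -log10 q of 173.6 and 139.4, while both IRF8KO lists held no peak of any strength. In the WT libraries it stood at the 95.7th and 94.9th percentile of strict peaks by pileup. At the lower WT level the deeper IRF8KO libraries would have shown a pileup of 240.1 and 201.8, and the lowest pileup deposited in them was 0.102 and 0.106 on the scaled measure. The summit window is printed because it holds 2 matches of the ETS-IRF element GGAANNGAAA, in capitals, the first read on the minus strand (GRCm38, plus strand, chr11:44382371-44382571).
Il12b -17.6 kb: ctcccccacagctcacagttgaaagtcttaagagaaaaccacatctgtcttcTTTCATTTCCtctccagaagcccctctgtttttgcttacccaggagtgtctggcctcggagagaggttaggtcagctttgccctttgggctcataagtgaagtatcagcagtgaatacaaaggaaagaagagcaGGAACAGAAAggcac
The minus-strand match, GGAAATGAAA, lies at chr11:44382423-44382432 and the plus-strand match, GGAACAGAAA, at chr11:44382557-44382566. Of the 8 WT-specific regions in the cytokine windows 1 held the element, this one, whereas 18.7% of all WT-specific regions of the series held it, against 4.30% of all regions.

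The remaining Il12b regions were weaker. WT-specific peaks at -9.55 kb (chr11:44390032-44390616) had scaled pileups of 0.490 and 0.389. Those at -7.38 kb (chr11:44392508-44392814) had scaled pileups of 0.213 and 0.204, close to the weakest strict peaks, and at the lower WT level would have given a pileup of 16.11 and 13.54 in the IRF8KO libraries. Neither held a searched motif. The promoter region at -0.95 kb (chr11:44398821-44399411) was present in every library, with scaled pileups of 0.788 and 0.818 in WT and 0.457 and 0.906 in IRF8KO. WT and IRF8KO overlapped there, and the log2 ratio was -0.24. A strict promoter peak was thus listed for every library, unlike the upstream region.

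Il12a encodes the chain specific to interleukin-12 and interleukin-35, and lies at chr3:68690644-68698547 on the plus strand with no other gene in its window. An intergenic region at -13.4 kb (chr3:68676862-68677387) had scaled pileups of 0.426 and 0.266 in WT and 1.61 and 2.58 in IRF8KO. Both IRF8KO libraries stood well above both WT libraries, with means of 2.1 ± 0.686 against 0.346 ± 0.113 (SD, n = 2 each) and a log2 ratio of 2.60, the largest among the shared regions of the 9 windows. The ratio was 2.88 under median ratio scaling and 2.22 to 2.98 when each library was left out in turn. The region held no searched motif within 100 bp of its summit. The tallest region by mean, at 18.7 kb (chr3:68709151-68709675), had 1.47 and 1.29 in WT and 1.10 and 1.72 in IRF8KO, with overlapping groups. At the start sites of Il12a only low peaks were listed, with scaled pileups between 0.151 and 0.225, in 4 separate regions of which none was found in all libraries. WT replicate 1 had no strict peak there and the other three libraries did.

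Il23a encodes the chain specific to interleukin-23 and lies at chr10:128296139-128298752 on the minus strand. The region just inside the gene (chr10:128298135-128298617, summit at 0.26 kb in a non-coding exon) had scaled pileups of 0.341 and 0.429 in WT and 0.952 and 1.07 in IRF8KO. Both IRF8KO values were above both WT values, with means of 1.01 ± 0.0850 against 0.385 ± 0.0627 (SD, n = 2 each) and a log2 ratio of 1.39. The ratio was 1.68 under median ratio scaling and 1.24 to 1.57 with 1 library left out. Its summit window is printed as the only shared region at a member's start past the 1.5-fold rule in the higher direction, with the PU.1 match GAGGAAG in capitals (GRCm38, minus strand, chr10:128298393-128298593).
Il23a 0.26 kb: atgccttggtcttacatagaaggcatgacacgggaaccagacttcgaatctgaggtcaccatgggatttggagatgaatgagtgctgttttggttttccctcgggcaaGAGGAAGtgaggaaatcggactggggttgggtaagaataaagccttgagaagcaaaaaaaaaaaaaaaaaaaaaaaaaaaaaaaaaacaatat
PU.1 is the ETS partner of IRF8, and its short motif was common, in 19.0% of all region windows and 14 of the 88 cytokine regions.

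The window of Il23a also holds Stat2 and Pan2. Its tallest region, at -4.51 kb (chr10:128303121-128304045), lay within 1 kb of the start of Pan2, a deadenylase gene, and had scaled pileups of 4.69 and 3.42 in WT and 2.0 and 3.25 in IRF8KO. IRF8KO was lower with a log2 ratio of -0.63, which became -0.36 under median ratio scaling, -0.38 without WT replicate 1 and -0.32 without IRF8KO replicate 1, each below the 1.5-fold rule. Without IRF8KO replicate 2 the ratio was -1.01. A weaker shared region in an intron of Stat2, at 11.6 kb, had 0.234 and 0.286 in WT and 0.292 and 0.302 in IRF8KO.

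Il27 encodes the chain of interleukin-27 that pairs with EBI3, and lies at chr7:126589010-126594941 on the minus strand beside Apobr and Cln3. The promoter region at -0.15 kb (chr7:126594817-126595388) had scaled pileups of 0.767 and 0.634 in WT and 0.393 and 0.619 in IRF8KO. IRF8KO lay lower, with only a small gap between the second libraries, and the log2 ratio of -0.47 did not reach the 1.5-fold rule. An ETS-IRF match, GGAAGGGAAA on the minus strand, stood at -119 bp from the transcription start. WT-specific peaks were found upstream at -7.16 kb (chr7:126601970-126602236), with scaled pileups of 0.809 and 0.389, and at -7.90 kb (chr7:126602721-126602968), with 0.341 and 0.204. The first of these held a RUNX motif, TGTGGTT.

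Downstream of Il27 the difference had the other sign. The region at 10.03 kb (chr7:126584434-126585073) lay at the starts of Apobr, a lipoprotein receptor gene, and Cln3, a lysosomal gene. It had scaled pileups of 0.703 and 0.675 in WT and 1.12 and 1.19 in IRF8KO, so that both IRF8KO libraries were higher, with a log2 ratio of 0.75. The ratio was 1.06 under median ratio scaling and 0.70 to 0.79 with 1 library left out.

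Ebi3 encodes the chain shared by interleukin-27 and interleukin-35, and lies at chr17:55952640-55957022 on the plus strand in a window with Gm16712, Shd, Yju2 and Zfp119b. Its promoter region (chr17:55952445-55952942) had scaled pileups of 1.51 and 0.941 in WT and 1.38 and 2.14 in IRF8KO. WT and IRF8KO overlapped at a log2 ratio of 0.52, while median ratio scaling separated them at 0.81 and made the region higher. An NF-kB motif stood at -56 bp. The tallest region of the window, at -7.29 kb over the start of Zfp119b, a zinc finger gene, had 4.37 and 2.76 in WT and 2.88 and 4.17 in IRF8KO, a log2 ratio of -0.02.

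An IRF8KO-specific region lay 10.7 kb from the Ebi3 start, in an intron of Yju2, a splicing factor gene (chr17:55963221-55963443). Its pileup was 24 and 30 in IRF8KO replicates 1 and 2, or 0.305 and 0.453 scaled, with a -log10 q of 2.44 and 5.46, and neither WT list held a peak. At the lower IRF8KO level the shallower WT libraries would have shown a pileup of 14.3 and 14.9. Their lowest deposited scaled values were 0.128 and 0.123 and their lowest strict values 0.192 and 0.184, which are floors of the whole lists. In IRF8KO replicate 1 the pileup of 24 here had a -log10 q of 2.44, whereas 13 had 3.07 at 14.32 kb from the Il23a start. Whether such a WT pileup would have been called at this place is therefore not known. The summit window is shown because it holds a match of the interferon-stimulated response element (ISRE), GAAANNGAAA, in capitals (GRCm38, plus strand, chr17:55963229-55963429).
Ebi3 10.7 kb: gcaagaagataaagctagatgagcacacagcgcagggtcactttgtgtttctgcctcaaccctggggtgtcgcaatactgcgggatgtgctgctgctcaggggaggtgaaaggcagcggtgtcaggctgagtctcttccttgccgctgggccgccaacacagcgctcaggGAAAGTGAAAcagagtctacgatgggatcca
The element, to which interferon regulatory factors bind, was found in 3.12% of all region windows and in 6 of the 88 cytokine regions.

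Il10 encodes an anti-inflammatory cytokine and lies at chr1:131019845-131024974 on the plus strand, alone in its window. Its promoter region at -0.19 kb was IRF8KO-specific. The pileup was 21 and 37 in IRF8KO replicates 1 and 2, or 0.267 and 0.559 scaled, with a -log10 q of 8.02 and 24.0, and both WT lists lacked a peak there. At the lower IRF8KO level the WT pileup would have been 12.5 and 13.0, where the weakest strict WT peaks had scaled pileups of 0.192 and 0.184. Il10 was the only gene of the 9 whose start sites had strict peaks in both IRF8KO libraries and in neither WT library.

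Other Il10 regions did not move together. A region at 0.08 kb, in a coding exon, had a scaled pileup of 0.170 as a weak peak in WT replicate 1, no peak in WT replicate 2, and 0.178 and 0.257 in IRF8KO. A WT-specific region at -2.53 kb (chr1:131017216-131017393) had scaled pileups of 0.298 and 0.245. The tallest region, in an intron at 1.32 kb (chr1:131021006-131021247) with an AP-1 motif, had 1.21 and 0.675 in WT and 0.533 and 0.679 in IRF8KO, and the groups overlapped despite a log2 ratio of -0.64.

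Il6 encodes interleukin-6, a cytokine of acute inflammation, and lies at chr5:30013114-30019981 on the plus strand with the non-coding gene A230098N10Rik in its window. Its 3 shared regions past the 1.5-fold rule were all lower in IRF8KO. The promoter region at -0.19 kb (chr5:30012811-30013023) had scaled pileups of 0.575 and 0.429 in WT and 0.165 and 0.242 in IRF8KO. Both IRF8KO libraries lay well below both WT libraries, with means of 0.203 ± 0.0542 against 0.502 ± 0.103 (SD, n = 2 each) and a log2 ratio of -1.31. The ratio was -1.02 under median ratio scaling and -1.61 to -1.06 with 1 library left out. The promoter window is printed as the largest difference in the lower direction among shared regions at member starts, with an AP-1 match (TGANTCA, at -246 bp) and a CEBP match (TTGCNNAA, read on the minus strand, at -124 bp) in capitals (GRCm38, plus strand, chr5:30012822-30013022).
Il6 -0.19 kb: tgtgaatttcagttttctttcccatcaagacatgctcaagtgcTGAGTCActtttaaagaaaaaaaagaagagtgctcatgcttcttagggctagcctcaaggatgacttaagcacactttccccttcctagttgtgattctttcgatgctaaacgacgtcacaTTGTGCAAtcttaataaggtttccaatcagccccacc
AP-1 and CEBP factors are known regulators of inflammatory genes, and their motifs were found in 8.11% and 9.54% of all region windows and in 11 and 8 of the 88 cytokine regions.

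The adjacent region at 0.14 kb, in an intron (chr5:30013101-30013382), had scaled pileups of 1.77 and 1.64 in WT and 0.80 and 1.40 in IRF8KO. IRF8KO was lower with a log2 ratio of -0.63, which was -0.39 under median ratio scaling, -0.57 without WT replicate 1 and -0.28 without IRF8KO replicate 1, each below the 1.5-fold rule. Without IRF8KO replicate 2 the ratio was -1.09. A region at 27.0 kb (chr5:30039852-30040235), with AP-1 and STAT motifs, had 1.68 and 1.35 in WT and 0.685 and 1.09 in IRF8KO. Its log2 ratio of -0.77 became -0.51 under median ratio scaling, -0.48 without IRF8KO replicate 1 and -1.15 without IRF8KO replicate 2. A region at 0.38 kb, in a coding exon, had strict peaks in 1 library of each genotype, with 0.405 in WT replicate 1 and 0.181 in IRF8KO replicate 2.

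Upstream of Il6, 3 regions stood in both WT lists and were low or missing in IRF8KO. That at -1.75 kb (chr5:30011281-30011435), named after its values were seen, had 0.426 as a strict peak in WT replicate 1 and 0.225 as a weak peak in WT replicate 2, with no peak in IRF8KO, and held ISRE and PU.1 motifs. The WT-specific region at -3.58 kb (chr5:30009466-30009632), within 1 kb of the start of A230098N10Rik, had scaled pileups of 0.362 and 0.286. The region at -19.3 kb (chr5:29993462-29994109), named after its values were seen, had 1.51 and 1.31 in WT, 0.140 as a weak peak in IRF8KO replicate 1 and 0.166 as a strict peak in IRF8KO replicate 2. The weak peak kept it out of the shared class, and its log2 ratio of -3.21 was larger in size than that of any shared region in the 9 windows. It was -2.90 under median ratio scaling and -3.34 to -3.09 with 1 library left out, and a PU.1 motif lay 3 bp from its summit.

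Tnf encodes tumour necrosis factor and lies at chr17:35199381-35202007 on the minus strand, in the dense cluster with Lta, Ltb, Lst1, Nfkbil1 and Gm16181. It had the most regions, 16, of which 11 had a strict peak in all 4 libraries and none was genotype-specific. The promoter region at -0.12 kb (chr17:35201541-35202239), with a PU.1 motif, had scaled pileups of 0.852 and 0.716 in WT and 0.990 and 1.15 in IRF8KO. Both IRF8KO libraries were higher, at a log2 ratio of 0.45 that missed the 1.5-fold rule and passed it at 0.76 under median ratio scaling. A second region at the start, at 0.80 kb in an intron, had no peak in WT replicate 1 and scaled pileups of 0.307 in WT replicate 2 and 0.317 and 0.302 in IRF8KO, which are nearly equal. An intronic region at 1.33 kb (chr17:35200471-35200824), with 2 AP-1 motifs, had 1.17 and 0.736 in WT and 1.69 and 1.75 in IRF8KO. It was higher in IRF8KO with a log2 ratio of 0.85, or 0.55 and below the rule without WT replicate 2, and 1.22 without WT replicate 1. The intergenic region at -8.00 kb (chr17:35209839-35210556) had 0.895 and 0.552 in WT and 1.08 and 1.15 in IRF8KO. Its log2 ratio of 0.62 became 0.32 without WT replicate 2, 0.58 without IRF8KO replicate 2 and 1.01 without WT replicate 1.

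Further out, the Tnf window held a region with the opposite sign. At -17.0 kb (chr17:35218581-35219173) the scaled pileups were 1.55 and 0.839 in WT and 0.698 and 0.785 in IRF8KO. Its log2 ratio of -0.69 rested on WT replicate 1, being -0.18 without it and -1.07 without WT replicate 2, and was -0.35 under median ratio scaling. The tallest region, in a coding exon of Ltb at 6.20 kb, had 2.26 and 1.64 in WT and 1.27 and 1.83 in IRF8KO, with overlapping groups. Over the 11 shared regions the median log2 ratio was 0.34, the highest of the 9 genes, beside -0.70 over the 4 shared regions of Il6.

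Ifnb1 encodes interferon beta, and lies at chr4:88522025-88522774 on the minus strand with no other gene in its window. The region next to its start, at -0.11 kb (chr4:88522837-88522989), was WT-specific. Its pileup was 18 and 16 in WT replicates 1 and 2, or 0.383 and 0.327 scaled, and neither IRF8KO list held a peak. At the lower WT level the IRF8KO libraries would have shown a pileup of 25.8 and 21.7. The part of the summit window inside the region is shown because the region is genotype-specific and lies at a member's start. It holds an NF-kB motif match, in capitals, at -132 bp (GRCm38, minus strand, chr4:88522837-88522983).
Ifnb1 -0.11 kb: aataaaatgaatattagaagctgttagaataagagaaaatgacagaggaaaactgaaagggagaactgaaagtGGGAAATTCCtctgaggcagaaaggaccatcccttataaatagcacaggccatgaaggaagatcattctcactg
NF-kB is a factor activated in inflammation, and its motif was found in 2.75% of all region windows and in 4 of the 88 cytokine regions.

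A second region at the Ifnb1 promoter, at -0.75 kb, was present in all libraries, with scaled pileups of 0.405 and 0.409 in WT and 0.254 and 0.619 in IRF8KO, and the groups overlapped. Downstream of the gene, the region at 6.98 kb (chr4:88515643-88516140) had 1.90 and 1.68 in WT and 0.685 and 1.30 in IRF8KO. IRF8KO was lower with a log2 ratio of -0.85, which stayed past the rule at -0.61 under median ratio scaling and fell short of it at -0.46 without IRF8KO replicate 1. Without IRF8KO replicate 2 the ratio was -1.38. Its summit window is printed as the only lower shared region with an ISRE match, in capitals and read on the strand opposite to Ifnb1 (GRCm38, minus strand, chr4:88515690-88515890).
Ifnb1 6.98 kb: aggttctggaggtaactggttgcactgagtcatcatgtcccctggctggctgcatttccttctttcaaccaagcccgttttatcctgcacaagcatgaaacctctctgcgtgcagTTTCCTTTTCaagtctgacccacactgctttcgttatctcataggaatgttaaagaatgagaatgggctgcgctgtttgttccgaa
The tallest region of the window, intergenic at -14.8 kb (chr4:88537272-88537958), had 3.54 and 2.92 in WT and 3.16 and 4.09 in IRF8KO, so that its groups overlapped.

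**Figure D4:**
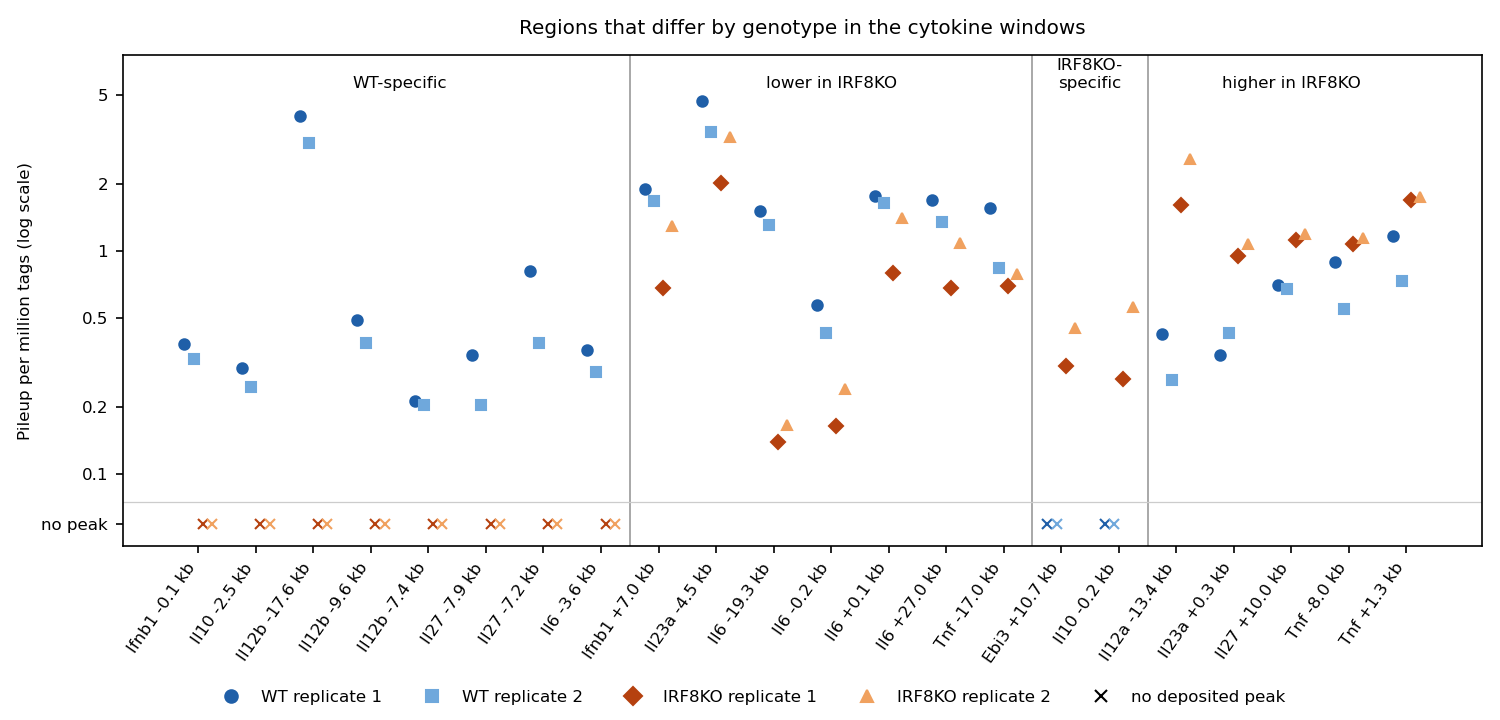
Scaled pileup (pileup per 1000000 tags, log scale) in each library for the genotype-specific regions, the shared regions past the 1.5-fold rule and the Il6 region at -19.3 kb, which has a weak peak in IRF8KO replicate 1. Crosses at the bottom mark libraries with no deposited peak, as for both IRF8KO libraries at the 8 WT-specific regions and both WT libraries at the 2 IRF8KO-specific ones.

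The motifs were searched on both strands within 100 bp of each summit, and matches may overlap one another. An ETS-IRF match was found in 3 of the 88 regions, against 4.30% of all. STAT (TTCNNNGAA) and RUNX motifs were found in 7 and 6 of the 88 regions, against 5.91% and 5.57% of all. A match describes letters and shows no binding.

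The receptors of these cytokines and their kinases were described by the same rules for 15 genes. Their windows held 230 regions, of which 7 were WT-specific and 7 IRF8KO-specific, 3.04% each against 5.58% and 3.86% in the series. Of their 105 shared regions 27 were lower and 11 higher in IRF8KO, 25.7% and 10.5% against 24.6% and 8.52%, with a median log2 ratio of -0.35. Under median ratio scaling 16 were lower and 15 higher, 15.2% and 14.3% against 14.7% and 15.4% of all shared regions, and the median was -0.06. Il10ra, the ligand-binding chain of the interleukin-10 receptor, had 21 regions, of which 2 were WT-specific, 1 was IRF8KO-specific and 10 were shared. Of the shared ones 7 were lower, and 4 of these stayed lower under that scaling. A region upstream of it (chr9:45272174-45272644) had scaled pileups of 2.39 and 1.82 in WT and 0.609 and 0.725 in IRF8KO, a log2 ratio of -1.66, or -1.35 under that scaling.

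Wide gaps were also found at other receptor genes. Tyk2, a kinase of the interleukin-12 and interferon receptors, had an intronic region (chr9:21125445-21126155) with 4.0 and 2.43 in WT and 0.495 and 0.846 in IRF8KO, a log2 ratio of -2.26. A region beyond Il6st, the signalling chain of the interleukin-6 and interleukin-27 receptors (chr13:112510339-112510754), had 1.17 and 1.06 in WT and 0.216 and 0.408 in IRF8KO, a log2 ratio of -1.84. Another, in an intron near an Il6st start (chr13:112473814-112474096), had 0.703 and 0.552 in WT and 0.178 and 0.227 in IRF8KO, a log2 ratio of -1.64. In the higher direction, a region upstream of Jak2 (chr19:29241541-29241886) had 0.341 and 0.184 in WT and 0.749 and 1.57 in IRF8KO, a log2 ratio of 2.14. These 4 kept their calls under median ratio scaling, at -1.99, -1.61, -1.34 and 2.40. Further log2 ratios of this size were 1.89 in the Il10rb window (chr16:91438049-91438489) and 1.69 and -1.66 in the Jak1 window (chr4:101283970-101284437 and chr4:101155553-101155870). Under that scaling they were 2.12, 1.97 and -1.43. No library had a strict peak at the start of Il12rb1, a chain of the interleukin-12 and interleukin-23 receptors, and 1 library, IRF8KO replicate 1, had one at Il23r.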

How the data were processed

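ATAC-seq was measured in 2 WT and 2 IRF8KO libraries, grouped by their labels. The authors called peaks per library without a control with MACS2 2.1.1.20160309, per the file headers, at a p cutoff of 1.00e-02, with cut sites shifted by -37 bp and extended to 73 bp. Bowtie2, bcl2fastq, deepTools and mm10 are named in the submitters' processing notes. The deposited pileup is a signal of whole-number depth at a summit. The deposited −log10 q values served to filter peaks, and the −log10 p values were not used. The deposited fold enrichment is a ratio to local background and was not compared between libraries. The headers state that q was not calculated, although the column held values.

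Repeated intervals were reduced to distinct peaks on 20 chromosomes, and strict peaks (−log10 q of at least 2) were merged into regions, a peak counting where it overlapped by 1 bp. Pileup was scaled to 1000000 header tags. Described were all 9 genes, with the regions within 1 kb of their starts, those called by the rules, and the tallest. Genotypes were compared by exact permutation. The IRF8KO libraries were 1.51 times as deep, and the effect of depth was not tested. The assignment of regions to classes was tested on simulated data. The gene lists and rules were chosen with earlier results of these data known. Alternatives were another q threshold, window, overlap, absence rule, scaling and ratio, leaving out neighbouring promoters or libraries, and a replicate block. Python 3.11.15, pandas 2.3.3, scipy 1.17.1 and pysam 0.24.0 were used. The sequence of 1 region is not reported here.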

Additional observations from a re-analysis of the deposited data

How the results depend on the processing

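With all 4 libraries and the stated rules, 8 WT-specific, 2 IRF8KO-specific, 6 lower and 5 higher regions were counted. Raising the strict threshold to a −log10 q of 5 left 4 of 61 regions in the WT-specific and 1 in the IRF8KO-specific class. With 50 kb flanks the windows held 168 regions, of which 17 were WT-specific, 4 IRF8KO-specific and 63 shared, with 14 of the shared ones lower. The strict peak difference of -9.5 (IRF8KO minus WT) became -16.5. In gene bodies alone, with 16 regions and 8 of them shared, the counts were 0 WT-specific, 0 IRF8KO-specific, 1 lower and 2 higher. The strict peak difference reversed to 2.5. When absence meant no strict peak, 4 regions were IRF8KO-specific. Median ratio scaling left 2 lower and gave 10 higher regions, and the median log2 ratio reversed from -0.11 to 0.19. A ratio of at least 2 left 1 lower and 2 higher of the 34 shared regions. With 1 library left out at a time, the windows held 80 to 84 regions, of which 36 to 38 were shared. The counts then ran from 9 to 13 WT-specific, 3 to 11 IRF8KO-specific, 3 to 15 lower and 3 to 10 higher regions. The median ran from -0.36 to 0.16, and the strict peak difference from -14 to -5. The cause of these shifts was not tested, beyond the smaller windows and fewer libraries themselves. Shares over all regions of the series were counted only for the stated rules and for median ratio scaling. With the replicate number as a replicate block, 6 regions were lower and 5 higher and the median was -0.10, so the block changed no call. The numbers pair the libraries by name only, and the correlation of their deviations was 0.008 over 48262 shared regions. Peaks near the lowest deposited pileup, 0.102 to 0.128 after scaling to 1000000 tags, can be missed at these depths.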

Other observations

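Beyond the 20 kb flanks, the stretch from 20 to 50 kb around the 9 genes held 80 further regions, of which 9 were WT-specific (11.25%, against 5.58% of all regions), 2 IRF8KO-specific (2.5%, against 3.86%) and 29 shared. Of the shared regions 8 were lower in IRF8KO (27.6%, against 24.6%) and 1 was higher (3.45%, against 8.52%). Under median ratio scaling 2 were lower and 4 higher, 6.90% and 13.8% against 14.7% and 15.4% of all shared regions. Il12b had 5 of the 9 WT-specific regions, all intergenic. Its region at -45.0 kb (chr11:44354900-44355374) had scaled pileups (per 1000000 tags) of 1.15 and 1.10 in WT. Those at -43.6 kb and -27.0 kb had 0.767 and 0.368, and 0.98 and 0.654. The pair downstream at 37.9 and 47.3 kb had 0.341 and 0.204, and 0.532 and 0.348, and the nearest start to both was that of Ublcp1. The Il12b flanks held 2 shared regions. That at -22.0 kb had 1.38 and 1.19 in WT and 0.635 and 1.04 in IRF8KO. That at 53.5 kb, also nearest to Ublcp1, had 0.277 and 0.266 in WT and 0.165 and 0.272 in IRF8KO. At -22.0 kb IRF8KO was lower with a log2 ratio of -0.62, which was -0.36 and below the 1.5-fold rule under median ratio scaling, and at 53.5 kb the groups overlapped.

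Around the other genes, a region 32.8 kb from the start of Il10 (chr1:131052441-131052741) had 2.15 and 1.49 in WT and 0.267 and 0.347 in IRF8KO, a log2 ratio of -2.57, or -2.27 under median ratio scaling. The nearest start is that of Mapkapk2, a kinase gene. A region at -30.7 kb from Il27, over the start of Nupr1, a stress response gene (chr7:126625308-126625872), had 0.405 and 0.245 in WT and 1.12 and 1.57 in IRF8KO, a log2 ratio of 2.05, or 2.35 under that scaling. A region 53.2 kb from the Ebi3 start, at the starts of Mpnd and Stap2, had 1.79 and 1.37 in WT and 0.533 and 0.725 in IRF8KO, a log2 ratio of -1.33. A WT-specific region near Ifnb1, at -32.2 kb, lay 3162 bp from the start of Ifna15, another type I interferon gene, and had 0.298 and 0.368.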
